A study of Mus musculus with 23 samples.

Results

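10 mouse genes that drive or police cell division were followed through sperm formation: the kinase genes Aurka, Aurkb, Aurkc, Plk1 and Plk4, the spindle checkpoint genes Bub1, Bub1b and Mad2l1, and the checkpoint target Cdc20 and the phosphatase gene Cdc25c. They were taken as a list by name, though with earlier results of these data known. They are 10 of the 18193 genes on the arrays with a probe set of a single symbol. Where a gene had several probe sets, the one brightest on average in the 20 wild-type arrays stood for it. A probe set is a group of short array probes designed for 1 transcript.

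Testis cells were separated by their content of a DNA-binding Hoechst dye, and their RNA was hybridised to 23 Affymetrix arrays. The wild-type cells came from F1 males of C57BL/6 and DBA/2J parents aged 10 to 16 weeks: spermatogonia (4 arrays), pre-leptotene (3), leptotene/zygotene (3), early-pachytene (1), mid-pachytene (2), late-pachytene (1) and diplotene (2) cells, which are spermatocytes, and haploid round spermatids (4). Spo11-/- males of the same age gave 3 arrays, with 1 for each of the spermatogonia, pre-leptotene and leptotene/zygotene fractions, from cells combined from collections of 4 and 3 mice. Spo11 encodes the enzyme that cuts DNA to start meiotic recombination. The labels give no strain for the Spo11-/- mice, so genotype, strain and collection cannot be told apart, and the labels do not say if mice are shared among the 3 arrays. The labels call the numbered wild-type arrays biological replicates, and p-values rest on the spread among those arrays. Precision is limited by how few arrays a group has.

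Aurora kinases and the Polo-like kinase Plk1 switch on at the entry into division, where they build the spindle and correct faulty chromosome attachments. The spindle checkpoint, with Bub1, BubR1 (the product of Bub1b) and Mad2, holds Cdc20 back until every chromosome is attached. Cdc20 then activates the anaphase-promoting complex (APC/C), which marks securin and cyclin B for destruction. In the testis, spermatogonia divide by mitosis, spermatocytes pass a long prophase before the meiotic divisions, and round spermatids no longer divide.

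Levels are log2(intensity + 1) of values normalized by the authors, given as mean ± SD over arrays, and a step of 1 is a doubling. Changes are fitted log2 differences ± SE from limma, a linear model with moderated variance. A call of higher or lower needed a change of at least 1 in size and a p-value below 0.05 after Benjamini-Hochberg adjustment across the whole table. Whether the arrays of 2 groups overlap is a description of the same values and adds no support to a call. Between wild-type fractions, the share of all genes without overlap was not counted. All 10 genes passed the filter on dim probe sets (log2 of at least 4 in at least 2 arrays), as did 13087 genes in all. In sorted bulk RNA, fewer cells of a type and less RNA per cell cannot be told apart.

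Arrays were alike in brightness, with medians of 10.63 to 12.56 intensity units and 44.2% to 47.3% of probe sets at log2 4 or more. Markers went only partly with the labels. The mean log2 of 6 spermatid markers (Prm1, Prm2, Tnp1, Tnp2, Acrv1 and Tssk2) was 13.38 to 13.95 in round spermatids, but also 11.43 to 13.59 in wild-type spermatogonia, 10.06 to 11.21 in pre-leptotene and 10.99 to 11.43 in leptotene/zygotene arrays. In the 3 Spo11-/- arrays it was 2.77 to 3.05, with 0 of the 6 markers at log2 4. Of 6 leukocyte markers, 6 reached log2 4 in the Spo11-/- pre-leptotene array, with a summed intensity of 9975, against 33 to 643 in the 3 wild-type pre-leptotene arrays. Their sum was 836 to 2443 in wild-type spermatogonia.

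The 200 bases before the transcription start that the RefSeq promoter table uses are shown for 3 genes that were higher in round spermatids than in spermatogonia (Aurka, Aurkc and Plk1) and for the gene with the deepest fall (Mad2l1). The sequences are RefSeq's, build GRCm38.p6, written 5′ to 3′ on the gene's strand, and capitals mark matches to the motifs searched. Aurka (minus strand) is shown at chr2:172370571-172370770, a window that lies wholly inside the annotated gene, Aurkc (plus strand) at chr7:6995185-6995384, a window that runs past the annotated gene start, Plk1 (plus strand) at chr7:122159235-122159434 and Mad2l1 (plus strand) at chr6:66535021-66535220.
Aurka: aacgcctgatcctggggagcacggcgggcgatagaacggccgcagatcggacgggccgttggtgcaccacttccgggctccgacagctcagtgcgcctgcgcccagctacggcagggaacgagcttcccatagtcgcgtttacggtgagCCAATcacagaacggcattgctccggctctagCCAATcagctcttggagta
Aurkc: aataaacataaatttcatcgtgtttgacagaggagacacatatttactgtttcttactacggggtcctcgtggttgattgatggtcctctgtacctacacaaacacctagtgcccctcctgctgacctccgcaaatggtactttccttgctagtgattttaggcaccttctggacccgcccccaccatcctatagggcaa
Plk1: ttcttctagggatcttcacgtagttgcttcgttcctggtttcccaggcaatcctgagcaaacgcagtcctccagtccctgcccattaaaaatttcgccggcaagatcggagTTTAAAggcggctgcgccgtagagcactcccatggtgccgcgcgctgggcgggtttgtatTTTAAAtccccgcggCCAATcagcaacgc
Mad2l1: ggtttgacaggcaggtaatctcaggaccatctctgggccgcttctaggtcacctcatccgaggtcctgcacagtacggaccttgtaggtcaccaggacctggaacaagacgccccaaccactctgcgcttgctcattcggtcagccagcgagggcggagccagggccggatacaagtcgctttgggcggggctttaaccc
The motifs were TTTGAA and TTTAAA, forms of the CHR element of late cell cycle promoters, CCAAT, the box bound by NF-Y, TGACG, the core of the CRE element, and TTTGGCG, an E2F site. Both strands were searched over 250 bases before the start, none of the motifs contains another, and TTTAAA reads the same on both strands. A match is a description of the letters. Promoters were found for 8 of the 10 genes, all but Aurkb and Cdc25c. CCAAT occurred in 5 of these 8 (Aurka, Plk1, Bub1, Bub1b and Cdc20), and in 33.8% of the 32851 mouse promoters of the table. The Plk1 promoter held TTTAAA with its first base at -89 and -29 and CCAAT at -14, and the Aurka promoter held CCAAT at -51 and -19. TTTAAA was in 2 of the 8 (Plk1 and Plk4; 12.1% of all promoters), TTTGAA in 1 (Cdc20; 16.0%), TGACG in 1 (Plk4; 17.8%) and TTTGGCG in 0 of the 8 (1.3%). Aurkc and Mad2l1 held none of the 5 letter strings in this window.

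**Figure D1:**
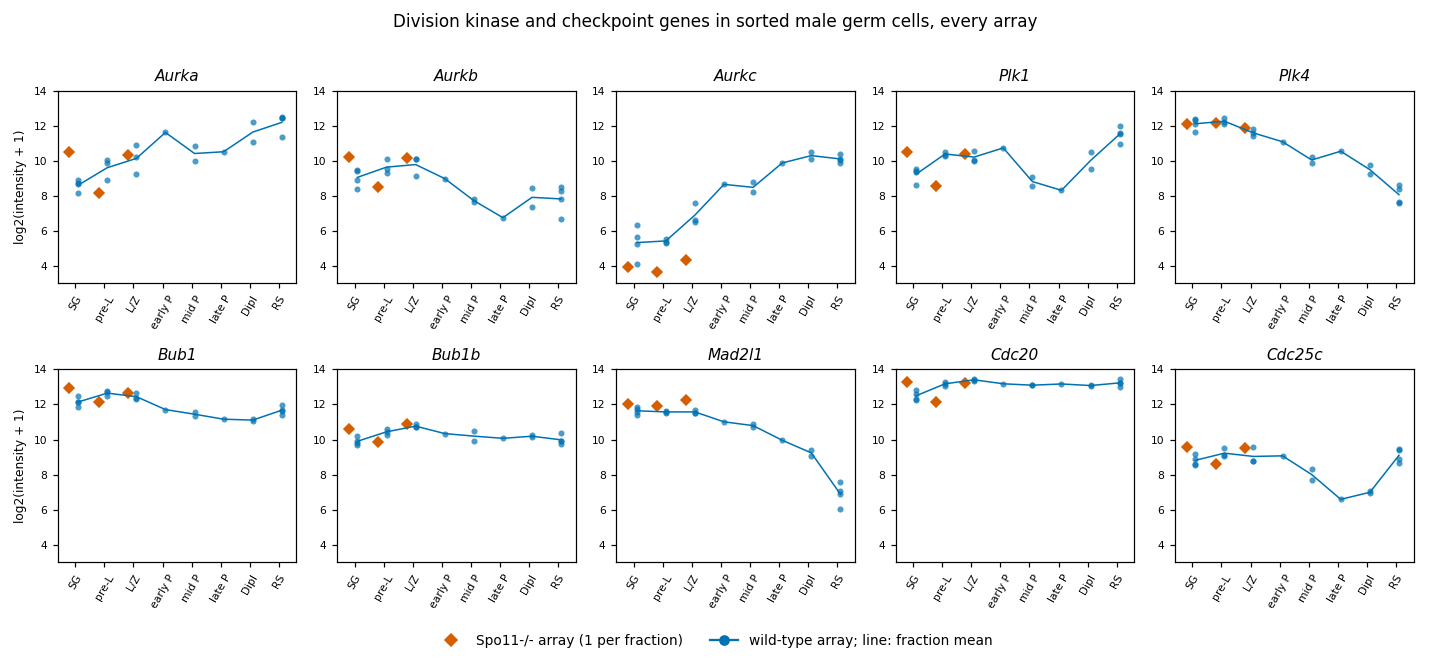
Log2(intensity + 1) of each of the 10 genes (vertical axis) in the 8 wild-type fractions from spermatogonia (SG) to round spermatids (RS) and in the 3 Spo11-/- arrays (horizontal axis). Points are single arrays, diamonds are Spo11-/- arrays and the line joins wild-type fraction means; Aurkc climbs to 10.29 in diplotene cells, Mad2l1 drops to 6.89 in round spermatids, and Bub1b and Cdc20 stay nearly level.

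Across the 8 wild-type fractions the genes went separate ways, as the plot of every array shows. Aurka, Aurkc and Plk1 ended highest or near their highest in round spermatids or diplotene cells. Mad2l1 drained away, and so did Plk4 on its brightest probe set but not on its other probe sets. Aurkb, Bub1 and Cdc25c dipped during or after pachytene, and Bub1b and Cdc20 hardly moved. The range of fraction means was widest for Aurkc (4.96) and Mad2l1 (4.76) and narrowest for Bub1b (0.87) and Cdc20 (0.91). The median range of the 10 genes was 3.12, against 2.54 over all 13087 genes past the filter.

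Aurkc (chr7:6995347-7003091 in GRCm38.p6) encodes the Aurora kinase largely limited to germ cells, where it joins the chromosomal passenger complex. Its level averaged 5.33 ± 0.94 in spermatogonia, 5.43 ± 0.12 in pre-leptotene, 6.89 ± 0.62 in leptotene/zygotene, 8.65 in early-pachytene, 8.48 ± 0.40 in mid-pachytene, 9.87 in late-pachytene and 10.29 ± 0.25 in diplotene cells, and 10.10 ± 0.21 in round spermatids. Spermatogonia overlapped pre-leptotene cells, early overlapped mid-pachytene, and diplotene cells overlapped round spermatids; leptotene/zygotene arrays lay apart from both neighbours. Aurkc was thus dim until meiosis was under way and stayed high afterwards.

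Aurka (chr2:172356190-172370886) encodes the Aurora kinase of spindle poles. Its means were 8.60 ± 0.33 in spermatogonia, 9.60 ± 0.59 in pre-leptotene, 10.13 ± 0.83 in leptotene/zygotene, 11.61 in early-pachytene, 10.41 ± 0.61 in mid-pachytene, 10.51 in late-pachytene and 11.63 ± 0.81 in diplotene cells, and 12.19 ± 0.55 in round spermatids. Only spermatogonia and the 1 early-pachytene array stood clear of the next group down or up in the order of means, and the other neighbours overlapped. Replicate spread was large: the diplotene arrays lay at 11.06 and 12.20.

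Aurkb (chr11:69045624-69051664) encodes the kinase of the chromosomal passenger complex in somatic cells. It averaged 9.05 ± 0.50 in spermatogonia, 9.63 ± 0.43 in pre-leptotene, 9.78 ± 0.55 in leptotene/zygotene, 8.98 in early-pachytene, 7.72 ± 0.15 in mid-pachytene, 6.75 in late-pachytene and 7.91 ± 0.78 in diplotene cells, and 7.82 ± 0.82 in round spermatids. Down the order of means the 4 earliest fractions overlapped one after another, and so did diplotene, round spermatid and mid-pachytene arrays at the lower level. A second Aurkb probe set gave similar changes.

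Plk1 (chr7:122159435-122169884) encodes the kinase that matures centrosomes and drives entry into division. Its means were 9.22 ± 0.42 in spermatogonia, 10.38 ± 0.11 in pre-leptotene, 10.21 ± 0.32 in leptotene/zygotene, 10.73 in early-pachytene, 8.81 ± 0.37 in mid-pachytene, 8.31 in late-pachytene and 10.01 ± 0.65 in diplotene cells, and 11.52 ± 0.42 in round spermatids. All 4 round spermatid arrays (10.97 to 12.00) lay above every other wild-type array. The mid-pachytene arrays overlapped spermatogonia.

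Plk4 (chr3:40799951-40816883) encodes the kinase that starts centriole duplication. On its brightest probe set it averaged 12.11 ± 0.33 in spermatogonia, 12.25 ± 0.18 in pre-leptotene, 11.58 ± 0.19 in leptotene/zygotene, 11.08 in early-pachytene, 10.04 ± 0.22 in mid-pachytene, 10.54 in late-pachytene and 9.49 ± 0.36 in diplotene cells, and 8.06 ± 0.52 in round spermatids. From leptotene/zygotene down the order of means, no neighbours overlapped. The other Plk4 probe sets did not follow this course, as described beside the comparison of round spermatids with spermatogonia.

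Mad2l1 (chr6:66535221-66541107) encodes Mad2, the protein that binds and restrains Cdc20. It held at 11.64 ± 0.20 in spermatogonia, 11.58 ± 0.08 in pre-leptotene and 11.58 ± 0.07 in leptotene/zygotene cells, then stood at 11.01 in early-pachytene, 10.79 ± 0.15 in mid-pachytene, 9.96 in late-pachytene and 9.24 ± 0.27 in diplotene cells and 6.89 ± 0.63 in round spermatids. The 3 earliest fractions overlapped and every later fraction lay below the one before it.

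Bub1 (chr2:127800197-127831859) encodes a kinase that recruits checkpoint proteins to kinetochores, the protein plates where spindle fibres attach. Its means were 12.14 ± 0.26 in spermatogonia, 12.64 ± 0.15 in pre-leptotene, 12.45 ± 0.18 in leptotene/zygotene, 11.71 in early-pachytene, 11.45 ± 0.16 in mid-pachytene, 11.16 in late-pachytene and 11.11 ± 0.11 in diplotene cells, and 11.67 ± 0.24 in round spermatids. Leptotene/zygotene arrays overlapped both spermatogonia and pre-leptotene arrays, while spermatogonia (highest array 12.47) lay just below pre-leptotene cells (lowest array 12.48). Spermatogonia (lowest array 11.83) also overlapped round spermatids (highest array 11.99), while every pachytene and diplotene array lay below all 3 earliest fractions.

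Bub1b (chr2:118598202-118641592) encodes BubR1, part of the complex that inhibits the APC/C. Its fraction means stayed between 9.90 in spermatogonia and 10.77 in leptotene/zygotene cells. Cdc20 (chr4:118432901-118437343) stayed between 12.50 in spermatogonia and 13.41 in leptotene/zygotene cells, and its spermatogonia arrays (12.25 to 12.83) lay below every other wild-type array. For Bub1b the spermatogonia arrays overlapped round spermatids.

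Cdc25c, on chromosome 18, encodes a phosphatase that removes inhibitory phosphates from Cdk1. Its means were 8.81 ± 0.29 in spermatogonia, 9.22 ± 0.23 in pre-leptotene, 9.04 ± 0.47 in leptotene/zygotene, 9.07 in early-pachytene, 8.0 ± 0.47 in mid-pachytene, 6.59 in late-pachytene and 6.99 ± 0.09 in diplotene cells, and 9.10 ± 0.40 in round spermatids. The 4 earliest fractions and round spermatids overlapped, while mid-pachytene, late-pachytene and diplotene arrays lay below them. Its lowest means were thus those of the 1 late-pachytene array and of diplotene cells. Spermatid markers dipped there too. Their mean log2 was 12.12 to 12.55 in mid-pachytene, 10.24 in late-pachytene and 11.52 to 11.61 in diplotene arrays, against 13.38 to 13.95 in round spermatids. The part of spermatid RNA in the Cdc25c course was not tested.

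Across the 8 fraction means, Mad2l1 and Plk4 had a Pearson correlation of 0.94, Aurkb and Bub1 of 0.90, and Aurkc had -0.86 with Plk4 and -0.79 with Aurkb. These describe 8 points that share arrays and normalization. All Plk4 correlations here are for its brightest probe set, whose course the other Plk4 probe sets did not follow. Among genes outside the 10, Aurkc ran closest to Pik3ip1 and Sbds (0.998 each), Mad2l1 to Polr2d and Slc39a7 (0.998 each), Plk4 to Orc4 (0.997) and Pdap1 (0.996), Cdc25c to Dpy30 (0.991) and Tmem185a (0.985), and Bub1 to Sdad1 (0.990) and Paf1 (0.988). Plk1 ran closest to Cdc42se1 (0.981) and Eif3b (0.971), Aurkb to Sar1a (0.973) and Esyt3 (0.968), and Aurka to Tmem39b (0.962) and Fa2h (0.961). Bub1b was most like Shisal1 (0.918) and Dclk1 (0.902), and Cdc20 most like Shisal1 (0.841) and the checkpoint gene Bub3 (0.83). Shisal1 itself ranged over only 0.26.

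**Figure D2:**
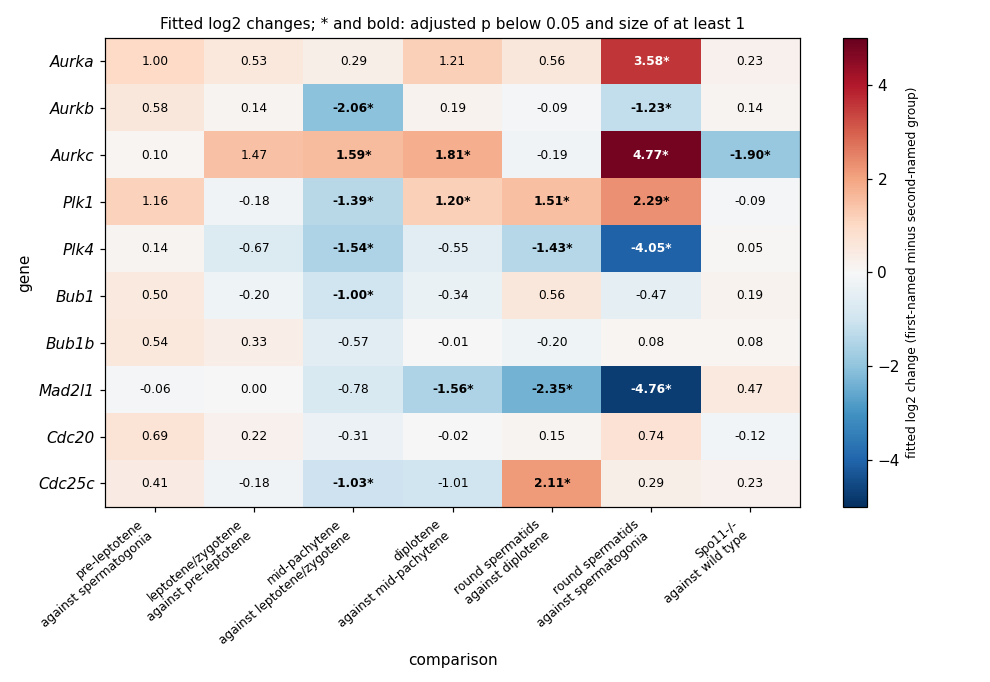
Fitted log2 change of the 10 genes (rows) in 7 comparisons (columns), the first-named group minus the second-named group, with values printed in the cells. Bold values with an asterisk passed the test; they number 0 for pre-leptotene cells against spermatogonia, 6 for mid-pachytene against leptotene/zygotene cells and 6 for round spermatids against spermatogonia.

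The step from spermatogonia to pre-leptotene cells asks what changes at the last round of DNA replication before meiosis. In limma 0 of the 10 genes passed in either direction, and 5 had an unadjusted p below 0.05. Over all genes 0.0611% were called higher and 1.64% lower. Plk1 was 10.29, 10.51 and 10.35 in pre-leptotene arrays, against 9.34, 9.41, 9.54 and 8.60 in spermatogonia (1.16 ± 0.30, limma adjusted p = 0.0631). The groups did not overlap. Cdc20 (0.69 ± 0.19, limma adjusted p = 0.0777) and Aurka (1.0 ± 0.43, limma adjusted p = 0.379) also had positive changes short of the test. With the replicate number as a block, Aurka (1.06, limma adjusted p = 0.00928) and Plk1 (1.14, limma adjusted p = 0.0393) were called higher. Without spermatogonia array 3, Plk1 passed in the main design too (1.27, limma adjusted p = 0.0475). The median change was 0.52 over the 10 genes and -0.01 over all genes. Leukocyte markers moved with this comparison (mean log2 of 2.67 to 5.76 in pre-leptotene arrays, against 5.76 to 7.44 in spermatogonia), as did spermatid markers. Stromal markers also did (4.86 to 6.76 in pre-leptotene arrays, against 6.75 to 10.28 in spermatogonia). The part of all these markers' cells in the comparison was not tested.

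From pre-leptotene to leptotene/zygotene cells, when recombination starts, again 0 of the 10 genes passed in limma, and 2 had an unadjusted p below 0.05. Over all genes 3.03% were higher and 0.0764% lower. Aurkc was 6.59, 6.49 and 7.61 in leptotene/zygotene arrays, against 5.39, 5.56 and 5.32 in pre-leptotene arrays, without overlap (1.47 ± 0.43, limma adjusted p = 0.0832). Plk4 differed by -0.67 ± 0.30 (limma adjusted p = 0.344). The medians were 0.07 over the 10 genes and 0.02 over all genes. Of 50 other division genes tested, 0 passed in limma in this step or in the one before it.

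In mid-pachytene cells 5 of the 10 genes fell and 1 rose against leptotene/zygotene cells. Over all genes 15.2% were lower and 14.2% higher. Aurkb fell furthest among them: it was 7.62 and 7.83 in mid-pachytene arrays, against 9.15, 10.08 and 10.11 in leptotene/zygotene arrays (-2.06 ± 0.51, limma adjusted p = 0.0072). Plk1 was 8.55 and 9.07 in mid-pachytene arrays, against 10.06, 9.99 and 10.57 in leptotene/zygotene arrays (-1.39 ± 0.36, limma adjusted p = 0.00885). In neither gene did the groups overlap.

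Plk4 (-1.54 ± 0.33, limma adjusted p = 0.00286), Bub1 (-1.0 ± 0.25, limma adjusted p = 0.00624) and Cdc25c (-1.03 ± 0.34, limma adjusted p = 0.0276) fell as well. Aurkc rose, at 8.20 and 8.76 in mid-pachytene arrays, against 6.59, 6.49 and 7.61 in leptotene/zygotene arrays (1.59 ± 0.49, limma adjusted p = 0.0206). The 2 Aurora genes of the passenger complex thus moved in opposite directions. The checkpoint genes Bub1b (-0.57 ± 0.25) and Mad2l1 (-0.78 ± 0.33) did not pass. The median was -0.89 over the 10 genes and -0.07 over all genes. Calls leaned on single arrays: without mid-pachytene array 2, which takes the other array to vary like the rest, 2 genes passed, and Aurkb (-2.16, limma adjusted p = 0.0512), Aurkc (1.30, 0.193), Bub1 (-0.89, 0.0827) and Cdc25c (-0.70, 0.304) did not. Without mid-pachytene array 1, Plk1 did not pass (-1.13, 0.075). Without leptotene/zygotene array 1, Aurkc (1.43, 0.0665) and Cdc25c (-0.76, 0.114) did not pass, without array 2 Aurkc did not (1.38, 0.0728), and without array 3 Bub1 lost the minimum size (-0.90).

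Some of these mid-pachytene falls also depended on the probe set or the design. The other Plk4 probe sets gave -0.02 (the _at set, limma adjusted p = 0.981) and -0.735 (the _a_at set, 0.0902). With medians over probe sets neither Plk4 (-0.02, limma adjusted p = 0.979) nor Bub1 (-0.46, 0.176) passed. Bub1 was also just under the minimum size with a pseudocount of 16 (-0.997) and with the replicate block (-0.95). Cdc25c was under it with a pseudocount of 16 (-0.99), and with only the arrays compared it did not pass (limma adjusted p = 0.0914).

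Of the 50 other division genes, 13 fell and 1 rose in this step. The riser was Pkmyt1, a kinase that holds Cdk1 inactive, at 10.83 in mid-pachytene and 7.90 in leptotene/zygotene cells (2.94 ± 0.29, limma adjusted p = 2.14e-05). Among Aurora partners, Tpx2, the activator of Aurora A (-1.57 ± 0.29), and Incenp, the scaffold of the passenger complex (-1.49 ± 0.26), fell, 2 of 6. The list of the APC/C and separase had 4 falls of 18, among them the inhibitor Fbxo5 (-1.94 ± 0.46) and the ubiquitin-conjugating enzyme Ube2c (-1.68 ± 0.44). Kinetochore genes had 3 falls of 9 (Mis12 -1.25 ± 0.47, Ndc80 -1.17 ± 0.31 and Spc25 -1.11 ± 0.27), and Trip13, the ATPase that remodels Mad2, was the 1 fall of 9 other checkpoint genes (-1.60 ± 0.41). Of 8 genes of division entry, Wee1 (-1.75 ± 0.27), Mastl (-1.71 ± 0.59) and Cdc25b were the falls; Cdc25b averaged 3.68 in mid-pachytene cells, under the filter level, and 6.88 in leptotene/zygotene cells.

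From mid-pachytene to diplotene cells, Aurkc and Plk1 rose and Mad2l1 fell. Over all genes 6.98% were higher and 14.5% lower. Aurkc was 10.11 and 10.47 in diplotene arrays, against 8.20 and 8.76 in mid-pachytene arrays (1.81 ± 0.53, limma adjusted p = 0.0222). Plk1 was 9.55 and 10.47 in diplotene arrays, against 8.55 and 9.07 in mid-pachytene arrays (1.20 ± 0.40, limma adjusted p = 0.0403). Mad2l1 was 9.43 and 9.05 in diplotene arrays, against 10.90 and 10.69 in mid-pachytene arrays (-1.56 ± 0.36, limma adjusted p = 0.00561). The groups stood apart in all 3 genes, which adds nothing to the calls, since both rest on the same 2 arrays a group. Cdc25c differed by -1.01 ± 0.37 (limma adjusted p = 0.0579) and Aurka by 1.21 ± 0.56 (limma adjusted p = 0.14). With the replicate number as a block both were called, Aurka higher (1.21, limma adjusted p = 0.00345) and Cdc25c lower (-1.015, 0.0091). The median was -0.02 over the 10 genes and -0.01 over all genes.

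These 3 calls rested on 2 arrays a group. Without mid-pachytene array 1 the values were 1.53 for Aurkc (limma adjusted p = 0.166), 0.94 for Plk1 (0.262) and -1.45 for Mad2l1 (0.0551), and without diplotene array 2 they were 1.63 (0.138), 0.74 (0.353) and -1.37 (0.0639), so 0 genes passed. Without mid-pachytene array 2, Cdc25c was called lower as well (-1.35, limma adjusted p = 0.0423). With only the arrays compared 0 genes passed (limma adjusted p of 0.0615 for Aurkc, 0.164 for Plk1 and 0.0597 for Mad2l1), and with quantile normalization Plk1 did not pass (1.14, 0.0517). Of the 50 other division genes 2 rose and 6 fell. Mad2l1bp, whose product helps Trip13 to open Mad2, rose (1.22 ± 0.37), and Trip13 fell (-2.07 ± 0.45). Fbxo5 (-2.18 ± 0.51), Mastl (-1.85 ± 0.64) and the APC/C subunit genes Anapc1 (-1.91 ± 0.30), Anapc5 (-1.75 ± 0.41) and Anapc4 (-1.69 ± 0.40) were also lower.

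Round spermatids are the products of both meiotic divisions. Against diplotene cells, Cdc25c and Plk1 rose and Mad2l1 and Plk4 fell, Plk4 only on its brightest probe set. Over all genes 12.5% were higher and 12.0% lower. Cdc25c was 9.44, 9.42, 8.90 and 8.64 in round spermatid arrays, against 6.93 and 7.05 in diplotene arrays (2.11 ± 0.32, limma adjusted p = 0.000198), and its other probe set also rose (1.89 ± 0.31, limma adjusted p = 0.000457). Mad2l1 was 7.56, 7.05, 6.88 and 6.05 in round spermatid arrays, against 9.43 and 9.05 in diplotene arrays (-2.35 ± 0.31, limma adjusted p = 7.42e-05). Neither gene's groups overlapped.

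Plk1 was 10.97, 11.57, 11.52 and 12.00 in round spermatid arrays, against 9.55 and 10.47 in diplotene arrays (1.51 ± 0.34, limma adjusted p = 0.00413). Plk4 fell on its brightest probe set (-1.43 ± 0.31, limma adjusted p = 0.00317), while its _at and _a_at sets changed by 0.202 and 0.502 and did not pass. Without diplotene array 1 neither passed (Plk1 1.05, limma adjusted p = 0.116; Plk4 -1.17, 0.0699). Aurkc (-0.19 ± 0.46) and Aurka (0.56 ± 0.49) did not pass. The median was 0.03 over the 10 genes and -0.01 over all genes. Stromal markers averaged log2 6.76 to 7.17 in round spermatids, against 4.86 to 4.92 in diplotene arrays. Spermatid markers averaged 13.38 to 13.95, against 11.52 to 11.61. The part of these markers' cells in the comparison was not tested. Of the 50 other division genes 5 rose and 9 fell; among them Cdc25a, a relative of Cdc25c, rose by 1.60 ± 0.24 and the kinetochore gene Spc25 by 1.25 ± 0.25, while the checkpoint gene Zwilch (-1.90 ± 0.27) and Anapc4 (-2.02 ± 0.35) fell.

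The widest comparison set round spermatids, which have left division, against spermatogonia, which divide by mitosis. Of the 10 genes 3 rose and 3 fell. Over all genes 30.2% were higher and 35.3% lower, so the share called among the 10 was near the share among all genes. Aurkc was 10.06, 9.87, 10.38 and 10.09 in round spermatids, against 5.25, 5.62, 4.09 and 6.36 in spermatogonia (4.77 ± 0.38, limma adjusted p = 1.08e-08). Aurka was 11.36, 12.48, 12.45 and 12.46 in round spermatids, against 8.13, 8.91, 8.66 and 8.71 in spermatogonia (3.58 ± 0.40, limma adjusted p = 4.79e-07). Plk1 rose by 2.29 ± 0.28 (limma adjusted p = 1.5e-06). In all 3 genes every round spermatid array lay above every spermatogonia array.

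Mad2l1 was 7.56, 7.05, 6.88 and 6.05 in round spermatids, against 11.41, 11.57, 11.86 and 11.73 in spermatogonia (-4.76 ± 0.25, limma adjusted p = 3.32e-10). Aurkb was 6.66, 8.52, 8.26 and 7.84 in round spermatids, against 8.40, 8.92, 9.43 and 9.45 in spermatogonia (-1.23 ± 0.40, limma adjusted p = 0.0106). The Mad2l1 groups were far apart, while the Aurkb groups overlapped at the edges. Without round spermatid array 1, which held the lowest Aurkb value, its change was -0.84 and under the minimum size. Bub1 (-0.47 ± 0.19, limma adjusted p = 0.0355) and Cdc20 (0.74 ± 0.18, limma adjusted p = 0.00119) had small changes below the minimum size, and Bub1b (0.08 ± 0.20) and Cdc25c (0.29 ± 0.26) did not pass. The median was 0.18 over the 10 genes and -0.16 over all genes. Leukocyte markers averaged log2 3.08 to 3.49 in round spermatids, against 5.76 to 7.44 in spermatogonia, without overlap. Spermatid and stromal markers overlapped between these groups (stromal 6.76 to 7.17 in round spermatids, against 6.75 to 10.28 in spermatogonia). The part of other cells in the comparison was not tested.

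**Figure D3:**
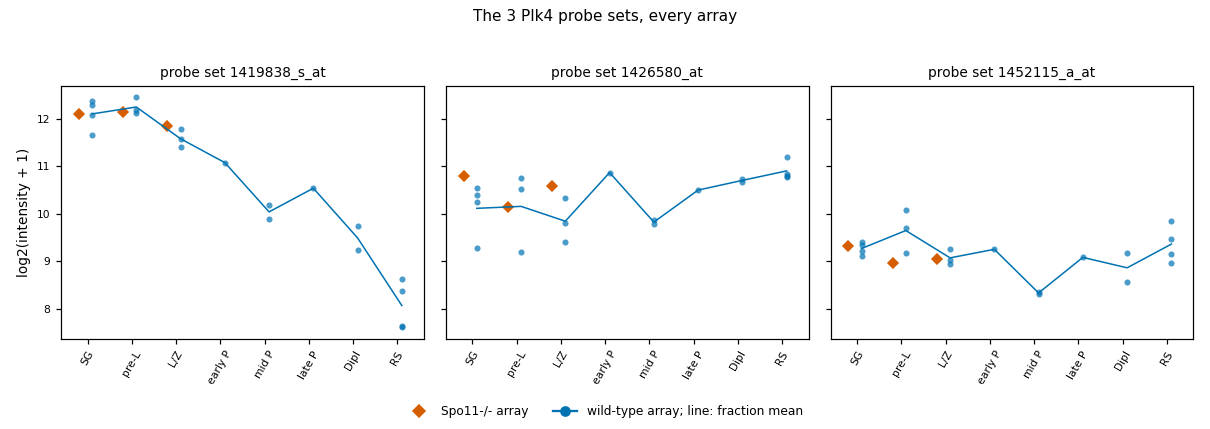
Log2(intensity + 1) of the 3 Plk4 probe sets (vertical axis) in the wild-type fractions from spermatogonia (SG) to round spermatids (RS) and the Spo11-/- arrays (horizontal axis), with points for arrays, diamonds for Spo11-/- arrays and a line through wild-type fraction means. The brightest probe set drops to 8.06 in round spermatids, whereas the other 2 average 10.91 and 9.36 there.

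Plk4 gave results that depended on the probe set. On the brightest, an _s_at set, Plk4 was 8.38, 8.63, 7.63 and 7.61 in round spermatids, against 12.08, 12.30, 12.39 and 11.66 in spermatogonia (-4.05 ± 0.26, limma adjusted p = 1.31e-09). The _at set averaged 10.91 ± 0.19 in round spermatids and 10.12 ± 0.57 in spermatogonia (0.79 ± 0.34, limma adjusted p = 0.0487, under the minimum size), and the _a_at set averaged 9.36 ± 0.39 in round spermatids and 9.27 ± 0.13 in spermatogonia (0.09 ± 0.24, limma adjusted p = 0.743). The plot of the 3 probe sets shows that 1 declines and the other two do not. Probe sets ending in _s_at or _x_at can match related transcripts; those of Plk4, Bub1b, Aurkb, Cdc20 and Cdc25c used here end so. Which Plk4 transcripts each detects was not tested, and with the median over probe sets none of the Plk4 falls passed.

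Within single arrays, relatives shifted unequally. Aurka minus Aurkb, 2 log2 levels of the same array, was 4.37 ± 0.35 in round spermatids and -0.45 ± 0.37 in spermatogonia (SD, n = 4 each; difference 4.81, two-sided exact permutation p = 0.0286, adjusted over 5 pairs 0.0357). The smallest p that 70 regroupings allow is 0.0286. Aurkc minus Aurkb differed by 6.0 and Plk1 minus Plk4 by 6.34 with the same exact permutation p, the last only as far as the brightest Plk4 probe set goes. Bub1 minus Bub1b was 1.69 ± 0.05 in round spermatids and 2.24 ± 0.31 in spermatogonia (difference -0.54, adjusted exact permutation p = 0.0357). Aurkc minus Aurka did not pass (1.19, exact permutation p = 0.0857). With medians over probe sets the differences were 3.004 for Aurka minus Aurkb, 2.971 for Aurkc minus Aurka and 3.082 for Plk1 minus Plk4. For Aurka the median takes in a second probe set under the filter level. That set averaged 2.56 in round spermatids and 2.54 in spermatogonia. For Plk4 the median came from the _a_at set in every round spermatid array, but mostly from the _at set in spermatogonia. It changed by -0.788, while the _at set changed by 0.79 and the _a_at set by 0.09. Taken as 4 numbered pairs, no test could pass, since the smallest exact p is then 0.125.

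**Figure D4:**
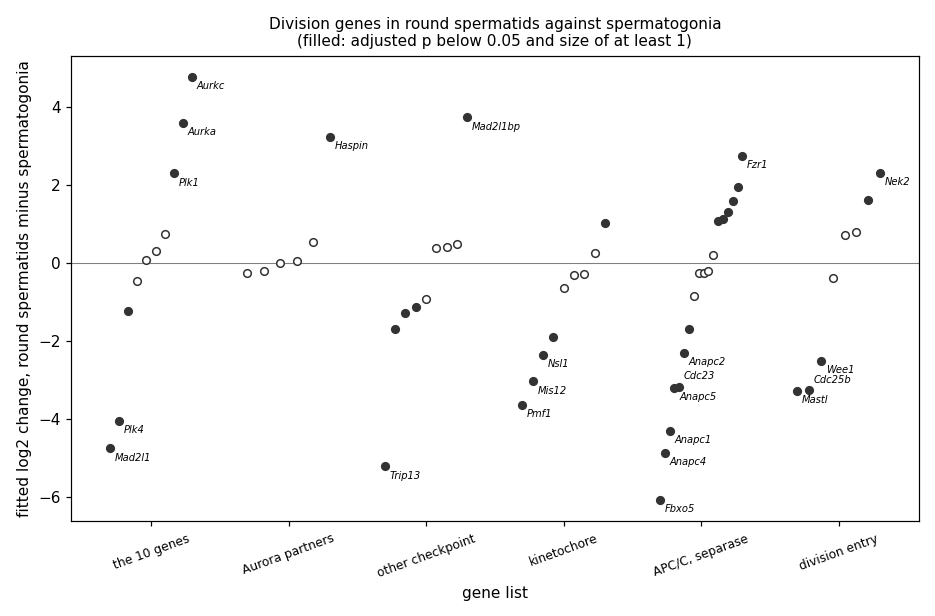
Fitted log2 change in round spermatids minus spermatogonia (vertical axis) for the 10 genes and 5 lists of other division genes (horizontal axis). Each point is a gene, filled where it passed the test; the points run from Fbxo5 at -6.09 to Aurkc at 4.77, and every list holds filled points.

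Around the 10 genes, 50 of 52 other division genes were tested, of which 11 rose and 18 fell in round spermatids against spermatogonia. Over all genes 30.2% were higher and 35.3% lower, so these counts were not far from the background. The median was -0.26 over the 50 genes and -0.16 over all genes. Of 6 Aurora partners 1 rose, Haspin, the histone kinase that draws the passenger complex to centromeres (14.10 in round spermatids and 10.89 in spermatogonia, 3.22 ± 0.45, limma adjusted p = 6.49e-06); Incenp (-0.01 ± 0.21) and Tpx2 (-0.26 ± 0.22) did not pass. Of 9 other checkpoint genes 1 rose and 4 fell. Mad2l1bp rose (3.73 ± 0.26, limma adjusted p = 3.15e-09), and Trip13 (-5.22 ± 0.32, limma adjusted p = 9.73e-10), Spdl1 (-1.71 ± 0.22) and Kntc1 (-1.29 ± 0.25) fell. Zwilch (-1.14 ± 0.22) was the other fall.

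Of 9 kinetochore genes 4 fell: Pmf1 (-3.65 ± 0.57), Mis12 (-3.04 ± 0.36) and Nsl1, 3 subunits of the Mis12 complex, and Spc24 (-1.90 ± 0.35). Nsl1 averaged 3.45 in round spermatids, under the filter level, and 5.81 in spermatogonia. The 1 riser was Nuf2 (1.03 ± 0.23), named after its value was seen. The APC/C and separase list was split, with 6 rises and 7 falls of 18. Fbxo5, an inhibitor of the APC/C (-6.09 ± 0.36, limma adjusted p = 6.94e-10), and the subunit genes Anapc4 (-4.88 ± 0.28), Anapc1 (-4.32 ± 0.21) and Anapc5 (-3.21 ± 0.29) fell. The 6 rises, also named after their values were seen, were Fzr1, a relative of Cdc20 that activates the APC/C (2.74 ± 0.39), Cdc27 (1.94 ± 0.22), Ube2s (1.58 ± 0.28), the securin gene Pttg1 (1.30 ± 0.17), Anapc10 (1.12 ± 0.19) and Cdc26 (1.07 ± 0.29). Of 8 genes of division entry 2 rose and 3 fell: the centrosome kinase gene Nek2 rose (2.31 ± 0.39), and Mastl (-3.29 ± 0.46) and Wee1 (-2.52 ± 0.21) fell. Cdc25b averaged 3.25 in round spermatids and 6.52 in spermatogonia. Pkmyt1 (1.62 ± 0.22), named after its value was seen, was the other rise.

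The Spo11-/- arrays show these genes in cells that cannot start recombination. Spo11 itself read 4.30, 4.80 and 5.21 in Spo11-/- spermatogonia, pre-leptotene and leptotene/zygotene arrays, against 4.60 to 6.69, 4.61 to 7.03 and 7.42 to 8.95 in the wild-type arrays of those fractions. The pre-leptotene Spo11-/- value lay within the wild-type range, and whether the probe set covers the deleted part is not given in the sources used here. In the fit of 13 arrays, with 1 shift shared by the 3 fractions, 1 of the 10 genes fell and 0 rose. Of 11980 genes tested 1.63% were higher and 10.0% lower.

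The gene that fell was Aurkc. It read 3.95 in Spo11-/- spermatogonia, against 5.25, 5.62, 4.09 and 6.36 in wild-type spermatogonia. In the pre-leptotene fraction it read 3.63 in the Spo11-/- array, against 5.39, 5.56 and 5.32 in wild-type arrays, and in the leptotene/zygotene fraction 4.35 in the Spo11-/- array, against 6.59, 6.49 and 7.61 in wild-type arrays. Each Spo11-/- array lay below every wild-type array of its fraction, and spermatogonia and pre-leptotene lay under the filter level of log2 4. The shared shift was -1.90 ± 0.40 (limma adjusted p = 0.00844), and without the Spo11-/- leptotene/zygotene array it was -1.59 and did not pass (limma adjusted p = 0.0765).

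Markers of later cells moved the same way. The mean log2 of 6 markers of pachytene and later cells was 5.54, 5.08 and 5.90 in the Spo11-/- spermatogonia, pre-leptotene and leptotene/zygotene arrays, against 8.80 to 10.28, 8.28 to 9.50 and 10.14 to 11.61 in wild-type arrays of those fractions. Ldhc and Pgk2 were below log2 4 in all 3 Spo11-/- arrays. Summed intensity of these markers was 737 to 1278 in Spo11-/- arrays, against 2733 to 32156 in wild-type arrays. The part of later cells in the Aurkc difference was not tested.

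Mad2l1 had a positive shift of 0.47 ± 0.15 (limma adjusted p = 0.0476) that was under the minimum size. It read 12.05, 11.92 and 12.26 in Spo11-/- spermatogonia, pre-leptotene and leptotene/zygotene arrays, each above every wild-type array of its fraction (highest 11.86, 11.65 and 11.66). Plk4 (0.05 ± 0.18), Bub1b (0.08 ± 0.22), Cdc20 (-0.12 ± 0.27), Aurkb (0.14 ± 0.39), Bub1 (0.19 ± 0.22), Aurka (0.23 ± 0.51), Cdc25c (0.23 ± 0.27) and Plk1 (-0.09 ± 0.43) did not pass. The median was 0.11 over the 10 genes and -0.05 over all genes.

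**Figure D5:**
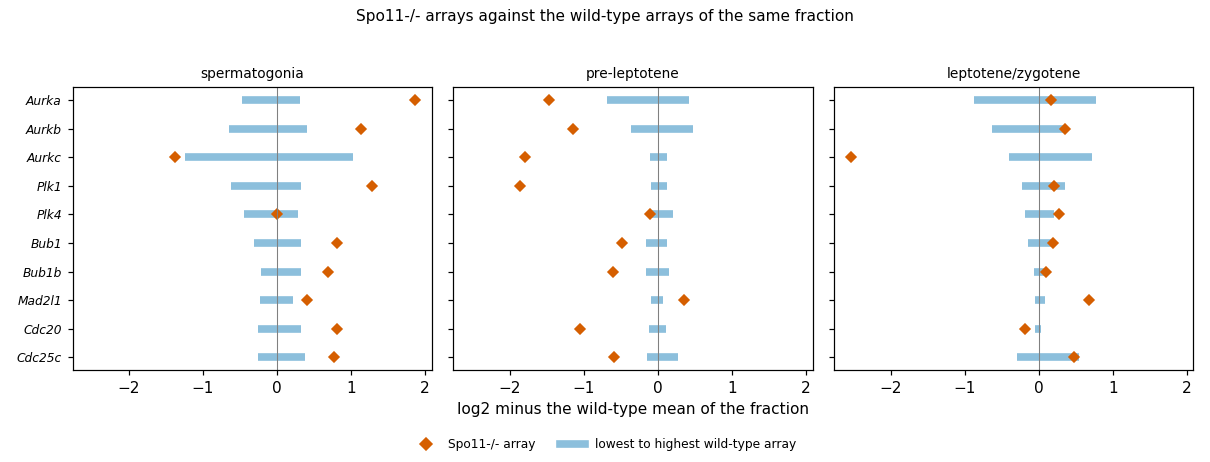
Spo11-/- array of each fraction (diamonds) and lowest to highest wild-type array (bars) for each gene, as log2 minus the wild-type mean of the fraction (horizontal axis). In spermatogonia 8 of the 10 diamonds lie above the wild-type arrays, and in pre-leptotene cells 8 lie below them.

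A shared shift hides what single fractions did, as the plot of Spo11-/- positions shows. With 1 Spo11-/- array a fraction, positions are given with no test. In spermatogonia 8 of the 10 genes lay above every wild-type array and 1 below (Aurkc), against 24.5% above and 29.3% below over all genes. In pre-leptotene cells 8 lay below and 1 above (Mad2l1), against 42.9% below and 27.4% above over all genes. In leptotene/zygotene cells 3 lay above, 2 below and 5 within, against 27.9% above and 36.1% below over all genes. Aurka, for example, read 10.47 in the Spo11-/- spermatogonia array, against a wild-type range of 8.13 to 8.91, and 8.13 in the Spo11-/- pre-leptotene array, against 8.92 to 10.02.

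A test of fraction by genotype, which takes each lone Spo11-/- array to vary like the wild-type arrays, passed for 1 of the 10 genes, Plk1 (limma adjusted p = 0.0374), and for 2.02% of all genes. Plk1 was 10.52 in the Spo11-/- spermatogonia array, against 9.34, 9.41, 9.54 and 8.60 in wild-type arrays. It was 8.53 in the Spo11-/- pre-leptotene array, against 10.29, 10.51 and 10.35 in wild-type arrays, and 10.40 in the Spo11-/- leptotene/zygotene array, against 10.06, 9.99 and 10.57. The differences were 1.29, -1.86 and 0.20. For Cdc20 the differences were 0.81, -1.05 and -0.18 (interaction adjusted p = 0.115 in limma), and for Aurka 1.87, -1.47 and 0.17 (0.21).

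The pre-leptotene Spo11-/- array also carried markers of other cells. Leukocyte markers averaged log2 7.73 there, against 2.67 to 5.76 in wild-type pre-leptotene arrays, with 6 of 6 at log2 4 or more. T cell markers averaged 7.68, against 3.17 to 3.29, with 4 of 5 measured at log2 4 or more and Cd4 below it. Peritubular and stromal markers averaged 8.21, against 4.86 to 6.76, with a summed intensity of 4447, against 580 to 1848. In the Spo11-/- spermatogonia array the leukocyte sum was 150, against 836 to 2443 in wild-type spermatogonia, and the stromal sum was 149, against 1109 to 16141. The part of these cells in the fraction differences was not tested.

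Of the 50 other division genes tested with Spo11-/-, 2 were called higher and 1 lower, against 1.63% higher and 10.0% lower over all genes. Bora, a cofactor with which Aurora A activates Plk1, rose (9.47 in Spo11-/- and 8.29 in wild-type arrays, 1.14 ± 0.30, limma adjusted p = 0.0229), and Haspin fell (8.20 in Spo11-/- and 10.61 in wild-type arrays, -2.39 ± 0.47, limma adjusted p = 0.00564). The other gene called higher was Plk3, a stress-related relative of Plk1. It averaged 4.29 in Spo11-/- arrays and 3.04, under the filter level, in wild-type arrays. Plk3 failed the filter over the wild-type arrays and was tested here only through the Spo11-/- arrays, so its call is not counted as support. Haspin, like Aurkc, was among the genes that rose with wild-type stage, and late-cell markers moved with both; their part was not tested.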

How the data were processed

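The intensity values were deposited by the authors as 1 table of 45037 probe sets on 23 arrays; they are normalized linear values, and GCRMA is named per the submitters' processing notes. The lowest value was 1.48 and the highest 107451, and no value column was left unused. Probe sets with a single gene symbol numbered 34945, those with several 932 and those with none 9160; 34741 were matched by Entrez ID, giving 18193 genes. The 10 genes and all lists were chosen with earlier results of these data known.

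Values were turned to log2(intensity + 1). Genes with log2 of at least 4 in at least 2 arrays were fitted with limma 3.58.1 in R 4.3.3, with 13087 genes in the wild-type fit of 20 arrays and 11980 genes in the Spo11-/- fit of 13 arrays. Early and late-pachytene cells, with 1 array each, entered no comparison. All 10 genes are named, plus the 2 genes most correlated with each of the 10. Per list and comparison, the rule was to name up to the 4 other genes with the largest change among those that passed. Not all of these are given, and for round spermatids against diplotene cells only a few are. Incenp and Tpx2 in round spermatids against spermatogonia, and genes marked as named after their values were seen, fall outside the rule. The procedure was tested on simulated data. Alternatives changed the filter, pseudocount, normalization, probe set, minimum size, arrays fitted and replicate block, and left out single arrays. Same-numbered arrays deviated together across genes to an uneven degree. The r was 0.526, 0.652 and 0.228 for pre-leptotene cells with spermatogonia. For diplotene with mid-pachytene cells it was 0.635, and for mid-pachytene with leptotene/zygotene cells 0.56 and 0.292. Some pairs hardly deviated together, with 0.083 to 0.591 for leptotene/zygotene with pre-leptotene cells. Round spermatids gave 0.066 and 0.592 with diplotene cells and 0.102 to 0.396 with spermatogonia.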

Additional observations from a re-analysis of the deposited data

Results flagged for a closer look

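Aurka in round spermatid array 1 was 11.36, against 12.45 to 12.48 in the other 3 arrays of the group, a gap of 0.966 of the group's whole range. It was 1 of 20 groups of 4 arrays looked at, and chance alone marks about 1 in 20 such groups. The same array also held the lowest Aurkb value (6.66) of its group.

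Plk1 differed between fractions in its Spo11-/- minus wild-type difference, which was 1.29 in spermatogonia, -1.86 in pre-leptotene and 0.20 in leptotene/zygotene cells (interaction adjusted p = 0.0374 in limma). Each difference has 1 Spo11-/- array, and the leukocyte, T cell and stromal markers given for the pre-leptotene array moved with it.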

How the results depend on the processing

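Of the alternative values for the 10 genes, 1186 stayed on their side of the threshold, 33 no longer passed and 9 passed newly. Another 5 changed sign, and in each of these the main value passed and the alternative did not, so these calls were lost too. Sign changes where neither value passed are counted among the 1186. Precision is limited by groups of 1 to 4 arrays, and an array left alone in a group was assumed to vary like the others. With no minimum size 2 genes passed for Spo11-/-, not 1. With only the arrays compared, 0 passed for diplotene against mid-pachytene, not 3. Under the replicate block 2 passed for pre-leptotene against spermatogonia and 5 for diplotene against mid-pachytene (Aurka 1.21 and Cdc25c -1.01 added), Bub1 in mid-pachytene fell under the minimum size (-0.95), and no other call of the 10 genes changed. No paired analysis was possible for Spo11-/- because its arrays carry no replicate number. In single Spo11-/- fractions (spermatogonia, pre-leptotene and leptotene/zygotene), Plk1 differed by 1.29, -1.86 and 0.20 and Aurkc by -1.38, -1.8 and -2.54. Each difference rests on 1 Spo11-/- array, so no calls of the 10 genes are given for them. Leaving out single arrays gave 0 to 1 genes for pre-leptotene against spermatogonia, 0 for leptotene/zygotene against pre-leptotene, 2 to 5 for mid-pachytene against leptotene/zygotene, 0 to 4 for diplotene against mid-pachytene, 2 to 4 for round spermatids against diplotene, 5 to 6 for round spermatids against spermatogonia and 0 to 1 for Spo11-/-. The arrays that ended or added a call are named beside the results.

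Other probe sets, an alternative chosen after seeing the data, turned Plk4 to 0.202 (_at) and 0.502 (_a_at) in round spermatids against diplotene cells and to 0.79 and 0.093 against spermatogonia, and Bub1 to 0.077 in mid-pachytene on a dim set. The cause was not tested. Over all genes, 223 were called for pre-leptotene against spermatogonia, against 10 with no filter, 75 with quantile normalization, 129 with median centring, 54 with a pseudocount of 16, 141 with medians over probe sets, 0 with only the arrays compared, 33 higher and 592 lower with the block and 8 to 596 without single arrays. For leptotene/zygotene against pre-leptotene 407 were called, against 164, 0 and 630 with no filter, only the arrays compared and the block, and 25 to 623 without single arrays. For diplotene against mid-pachytene 2812 were called, against 0 with only the arrays compared and as few as 1339 without single arrays; the lowest such counts were 1466 against 3839 for mid-pachytene, 1691 against 3199 for round spermatids against diplotene and 834 against 1398 for Spo11-/-. Quantile normalization put the median change of all genes in round spermatids against spermatogonia at 0, not -0.16, and changed no call of the 10 genes there. In single Spo11-/- fractions 469, 932 and 417 were called.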
